A study of Homo sapiens with 4 samples.

Results

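The peaks described here lie in genes for long noncoding RNAs (lncRNAs) of 5 naming classes in RPMI-8226 cells. This established line was derived from a human multiple myeloma, a plasma cell cancer. The peaks were taken from the authors' m6A peak lists by gene symbol alone. Symbols that begin with LINC and a number (long intergenic noncoding RNA) or end in -DT (divergent transcript) were taken. So were those that end in -AS (antisense to a named gene) or -IT (intronic transcript), with or without a number after them, and SNHG symbols (small nucleolar RNA host gene). The lncRNA OIP5-AS1 matches this pattern but was left out. This gave 867 of the 24626 peaks of the shALKBH5 list, in 461 of 12076 genes, and 740 of the 22448 peaks of the shNC list, in 404 of 11306 genes. Over both lists, 497 of 12779 genes were members, namely 309 antisense, 151 LINC, 28 divergent, 2 intronic and 7 SNHG genes.

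Cells were transduced with lentivirus carrying a short hairpin RNA, either shALKBH5 against the RNA demethylase ALKBH5 or the hairpin named shNC, and both groups are the same cell line. From each, poly(A) RNA was sequenced as 1 library enriched with an anti-m6A antibody (IP) and 1 library of RNA before enrichment (input), which makes 4 libraries and 1 peak list per condition. No value therefore has a replicate, no p-value between conditions was computed, and an effect of the hairpin cannot be told apart from a difference between the libraries. The tables hold no read counts, so depth is unknown, and all intervals below are exact (Clopper-Pearson) 95% binomial intervals that cover counting error over peaks only.

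For 465 of the 497 member genes, at least 1 peak overlapped the RefSeq span of the gene, 416 under the authors' symbol and 49 under an older one. The other members are not all absent from RefSeq, since some, such as SNHG20, have a span there but no peak on it. RefSeq lists 457 of the 465 as lncRNA, 2 as antisense RNA, 2 as transcribed pseudogenes and 4 as protein-coding. The protein-coding ones are NCBP2-AS2, LINC00634, TNRC6C-AS1 and TTLL11-IT1, so the names of these 4 go against their RefSeq class. Of the plasma cell genes used to check the cell type, IRF4 had 4 shALKBH5 and 5 shNC peaks, PRDM1 4 shALKBH5 and 3 shNC peaks, XBP1 2 in each list and SDC1 4 in each list, while TNFRSF17 had none in either. ALKBH5 itself had 3 peaks in each list. A peak gives no expression level, so the knockdown could not be checked from these lists.

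N6-methyladenosine (m6A) is placed on RNA polymerase II transcripts by a methyltransferase complex built around METTL3 and METTL14, is removed by ALKBH5, and is bound by YTH-domain proteins that affect processing and decay of the RNA. Poly(A) lncRNAs are made, spliced and methylated by the same machinery as mRNAs. Antisense genes are transcribed from the strand opposite to a named gene, divergent transcripts leave a promoter in the direction away from it, and SNHG genes carry small nucleolar RNAs (snoRNAs) in their introns.

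Some member peaks covered the annotated start of the gene, where the first transcribed bases and the DNA before them can be read. The start was covered in 29 members for which RefSeq gives a 300-base window (250 bases before and 50 after the start, GRCh38.p14), and 13 of these windows lie in no protein-coding gene. The 6 with the strongest p of the peak are printed from RefSeq, 5′ to 3′ on the transcript strand, with the bases inside the peak in capitals. LINC00667 is on chr18:5237850-5238149 (+), TMEM44-AS1 on chr3:194584018-194584317 (+), NOP14-AS1 on chr4:2935296-2935595 (+), LINC01016 on chr6:33896858-33897157 (-), LINC00920 on chr16:66408274-66408573 (+) and LINC01578 on chr15:92882593-92882892 (+). LINC01578 is the older symbol of CHASERR, a lncRNA gene that in mouse limits expression of its neighbour Chd2.
LINC00667: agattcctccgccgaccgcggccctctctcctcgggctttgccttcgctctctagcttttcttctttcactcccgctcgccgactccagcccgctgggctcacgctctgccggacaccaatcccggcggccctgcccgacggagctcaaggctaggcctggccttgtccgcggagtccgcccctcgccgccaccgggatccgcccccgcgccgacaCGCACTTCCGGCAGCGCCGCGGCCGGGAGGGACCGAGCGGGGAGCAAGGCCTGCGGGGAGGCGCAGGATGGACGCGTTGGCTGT
TMEM44-AS1: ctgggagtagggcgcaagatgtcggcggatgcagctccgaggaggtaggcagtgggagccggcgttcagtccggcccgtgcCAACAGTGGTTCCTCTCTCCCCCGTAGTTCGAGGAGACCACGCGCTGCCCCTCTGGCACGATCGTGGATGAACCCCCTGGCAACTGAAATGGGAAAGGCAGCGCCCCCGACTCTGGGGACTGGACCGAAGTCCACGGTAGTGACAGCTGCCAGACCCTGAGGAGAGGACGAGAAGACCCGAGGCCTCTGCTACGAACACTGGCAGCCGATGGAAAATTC
NOP14-AS1: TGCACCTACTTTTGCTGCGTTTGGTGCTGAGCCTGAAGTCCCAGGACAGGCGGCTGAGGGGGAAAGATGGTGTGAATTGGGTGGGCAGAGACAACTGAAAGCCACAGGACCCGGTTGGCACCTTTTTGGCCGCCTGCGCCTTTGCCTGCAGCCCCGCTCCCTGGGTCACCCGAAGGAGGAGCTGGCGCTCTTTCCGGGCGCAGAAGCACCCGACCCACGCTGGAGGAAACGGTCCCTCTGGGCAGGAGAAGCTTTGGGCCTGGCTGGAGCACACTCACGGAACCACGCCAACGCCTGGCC
LINC01016: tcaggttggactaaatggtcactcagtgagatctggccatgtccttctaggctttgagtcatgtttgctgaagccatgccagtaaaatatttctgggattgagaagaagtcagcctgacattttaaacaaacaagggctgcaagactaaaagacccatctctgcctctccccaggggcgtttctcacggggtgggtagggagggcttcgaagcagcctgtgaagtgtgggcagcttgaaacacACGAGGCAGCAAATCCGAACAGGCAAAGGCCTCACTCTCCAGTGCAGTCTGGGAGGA
LINC00920: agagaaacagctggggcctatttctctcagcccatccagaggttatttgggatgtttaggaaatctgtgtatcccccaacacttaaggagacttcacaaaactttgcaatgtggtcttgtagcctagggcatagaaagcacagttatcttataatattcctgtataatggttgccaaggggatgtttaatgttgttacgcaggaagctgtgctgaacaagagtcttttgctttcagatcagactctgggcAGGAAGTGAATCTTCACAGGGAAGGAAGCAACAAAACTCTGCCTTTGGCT
LINC01578: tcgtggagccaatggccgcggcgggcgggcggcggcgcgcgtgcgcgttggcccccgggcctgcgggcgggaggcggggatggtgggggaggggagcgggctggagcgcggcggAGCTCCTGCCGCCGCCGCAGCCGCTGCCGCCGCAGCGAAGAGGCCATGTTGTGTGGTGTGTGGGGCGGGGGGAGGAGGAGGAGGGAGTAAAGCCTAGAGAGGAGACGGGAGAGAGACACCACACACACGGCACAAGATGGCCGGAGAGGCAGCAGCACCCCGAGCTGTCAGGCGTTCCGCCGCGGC

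In these windows the peak held 84 bases for LINC00667, 219 for TMEM44-AS1, 300 for NOP14-AS1, 57 for LINC01016, 50 for LINC00920 and 186 for LINC01578. All but LINC00920 therefore had peak bases upstream of the RefSeq start, and in NOP14-AS1 the peak ran through the whole window. In LINC00920 the peak began at the annotated first base. The letters GGACT, a frequent spelling of the m6A consensus, were found 1 time in TMEM44-AS1, 53 bases before the start and inside the peak, and 1 time in LINC01016, 243 bases before the start and outside the peak. The same letters on the other strand (AGTCC) were found 1 time in LINC00667, 2 times in TMEM44-AS1 and 1 time in NOP14-AS1. GGACT stood in 26.3% of the 415 member windows and in 25.3% of all 35116 RefSeq windows, and AGTCC in 25.3% of both. These are counts of letters and say nothing of which bases are methylated.

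LINC00667 shares its start region with another member. LINC00526 starts at chr18:5238029 on the minus strand and LINC00667 at chr18:5238100 on the plus strand, so the starts of this head-to-head pair are 71 bases apart. The authors list a peak over the LINC00667 start for both genes, at chr18:5238066-5238515 with a fold of 10.8 for LINC00667 and at chr18:5238063-5238509 with a fold of 10.8 for LINC00526 in the shALKBH5 list. The folds of this pair were 12.6 and 12.7 in the shNC list. The coordinates overlap almost entirely, so 1 enriched region is entered under both genes. The shALKBH5 peak entered for LINC00526 lies wholly before the RefSeq start of LINC00526 and so outside its span. In that list it also shares 263 bases with a peak of AP001496.2 (fold 9.84, log10 p -65.9).

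The fold of each peak is the authors' enrichment of IP relative to input, and the p is the authors' own for that peak. Both are used only to describe and rank peaks within a list. Member peaks had higher folds and weaker p than the list they came from. The median fold of member peaks was 9.27 in the shALKBH5 list, where that of all peaks was 6.64, and 9.37 in the shNC list, where that of all peaks was 6.54. The median log10 p was -8.03 for members and -15.3 for all peaks of the shALKBH5 list, and -8.65 and -15.8 in the shNC list. Of the member peaks, 38.9% (35.6 to 42.2) fell in the weakest quartile of the shALKBH5 list by p and 36.4% of them in that of the shNC list. The strongest quartile held 13.5% (11.3 to 16.0) of them in shALKBH5 and 13.8% in shNC. Peaks in the other RefSeq lncRNA genes were similar in kind, with a median fold of 8.14 and a median log10 p of -9.92 over 219 peaks of the shALKBH5 list, and 9.19 and -9.09 over 215 peaks of the shNC list.

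**Figure D1:**
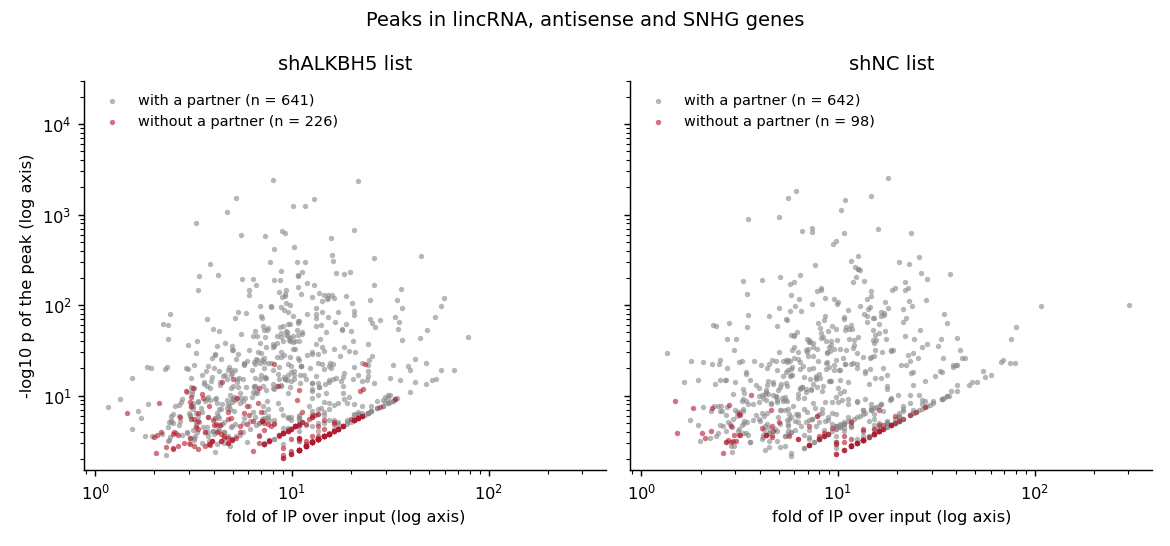
Each point is 1 member peak, with the authors' fold of IP over input on the x axis and -log10 of the authors' p on the y axis (both log axes), shALKBH5 list left and shNC list right, red where the other list has no peak with a base in common. The 226 shALKBH5 and 98 shNC peaks without such a partner sit at the weak end of p, many of them on thin lines where peaks share the same fold and p.

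Member peaks were a little shorter than all peaks, and in the shALKBH5 list fewer crossed a splice junction. The median length was 239 bases in the shALKBH5 list, with 269 for all peaks, and 241 bases in the shNC list, with 270 for all peaks. More than 1 block means that the peak follows an exon junction. It was found in 14.5% (12.3 to 17.1) of shALKBH5 member peaks, with 17.9 percent of all peaks. In the shNC list it was found in 15.3% (12.8 to 18.1), and the 17.4 percent of all peaks lies within this interval. Peaks of other RefSeq lncRNA genes were similar, with median lengths of 240 bases in shALKBH5 and 239 in shNC. Of these, 13.7% in shALKBH5 and 12.6% in shNC had more than 1 block. A single peak per gene was the rule: 253 of 461 genes (54.9%) had 1 peak in the shALKBH5 list and 223 of 404 (55.2%) in the shNC list. Over all genes these shares were 47.5% for shALKBH5 and 49.3% for shNC.

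The strongest antisense peak by p was that of NCBP2-AS2, a gene beside NCBP2, the small subunit of the nuclear cap-binding complex. RefSeq names it NCBP2AS2 and lists it as protein-coding. In the shALKBH5 list it had peaks at chr3:196942653-196943067 (fold 3.83, log10 p -286) and chr3:196943126-196943540 (fold 21.8, log10 p -2340). In the shNC list a single peak at chr3:196942682-196943540 spanned the same stretch, with 18.0-fold enrichment at a log10 p of -2520. The same stretch was thus entered as 2 peaks in one list and 1 in the other. No peak of another gene overlapped them.

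AFAP1-AS1, antisense to the gene of an actin filament-associated protein, had the most peaks of any member summed over both lists, 9 in the shALKBH5 list, as many as TMEM51-AS1, and 10 in the shNC list. All of them lay at least 18164 bases after the RefSeq start, in a row that reached the final base of the gene. In transcript order the shALKBH5 folds were 10.1, 5.54, 3.36, 2.34, 4.2, 2.41, 2.22, 1.54 and 1.91. The shNC folds of the 9 peaks that match them were 10.4, 6.6, 3.3, 2.8, 5.08, 3.46, 2.39, 1.65 and 3.02. In both lists the fold was highest in the first peak of the row and lowest in the eighth of these. The remaining shNC peak, at chr4:7774588-7774678 with a fold of 1.49, had no partner. Of these AFAP1-AS1 peaks, the first in the shALKBH5 list shared 60 bases with a peak of AFAP1 whose log10 p was -10.1, against -1260 for AFAP1-AS1.

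**Figure D2:**
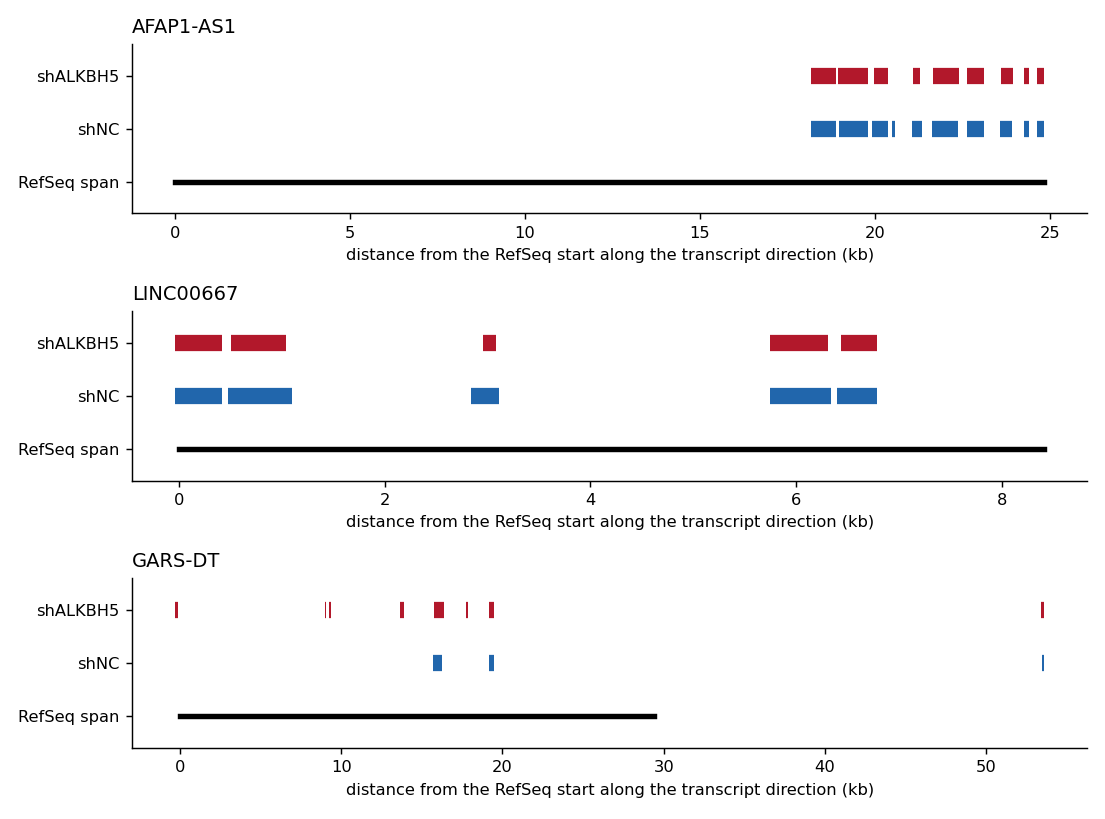
Peaks of AFAP1-AS1, LINC00667 and GARS-DT (red shALKBH5, blue shNC) drawn by their distance in kb from the RefSeq start along the transcript, above the RefSeq span in black; a peak in several blocks is drawn from its first to its last base. AFAP1-AS1 and LINC00667 carry almost the same peaks in both lists, while GARS-DT has 8 in the shALKBH5 list and 3 in the shNC list.

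Other antisense genes also had many peaks in both lists. PAX8-AS1, antisense to the gene of a thyroid and kidney transcription factor, had 8 peaks in the shALKBH5 list and 9 in the shNC list. Its strongest shALKBH5 peak, at chr2:113239764-113240093, had 13.8-fold enrichment at a log10 p of -136, and the same borders in the shNC list with 14.5 and -96.2. The PAX8-AS1 peak at chr2:113275951-113276131 also kept its borders, but its folds were 4.98 in the shALKBH5 list and 33.9 in the shNC list, with log10 p of -4.57 in shALKBH5 and -9.24 in shNC. The p of this peak is weak in both lists.

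TTC28-AS1 had 8 peaks in the shALKBH5 list and 9 in the shNC list, all with a partner. Its strongest, a spliced peak over chr22:27922566-27924641 in both lists, had 15.2-fold enrichment at a log10 p of -129 in the shALKBH5 list and 9.85 and -103 in the shNC list. At chr22:28001046-28001556 the shALKBH5 list has 1 peak with a fold of 14.7 where the shNC list has 2, with folds of 5.58 and 3.39. TMEM51-AS1 had 9 shALKBH5 and 8 shNC peaks, with log10 p between -3.37 and -9.54 in the shALKBH5 list and between -3.07 and -16.6 in the shNC list. Of these TMEM51-AS1 peaks, 7 in the shALKBH5 list and 6 in the shNC list shared 70% or more of both peaks with a peak of KAZN on the opposite strand, with folds such as 3.75 for both genes, and cannot be told apart from it.

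Among LINC genes the strongest peak by p was that of LINC02009, which was also the strongest member peak of the shALKBH5 list. It lay at chr3:46418401-46418967 with 7.98-fold enrichment at a log10 p of -2430 in the shALKBH5 list, and at chr3:46418401-46418997 with 6.11 and -1820 in the shNC list. LINC02009 had 2 further peaks, with folds of 1.16 and 2.34 in the shALKBH5 list and 1.35 and 2.31 in the shNC list. LINC01287 followed, with a peak at chr7:153400050-153400498 of fold 5.21 and log10 p -1530 in the shALKBH5 list, and 5.54 and -1540 in the shNC list. Neither LINC02009 nor LINC01287 shared a base with a peak of another gene.

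LINC00667 had 5 peaks in each list and every peak had a partner. In transcript order their folds were 10.8, 8.74, 4.52, 9.82 and 9.36 in the shALKBH5 list, and 12.6, 11.9, 21.4, 11.8 and 5.7 in the shNC list. The LINC00667 peak in the middle, where the folds differ most, is also the weakest by p, with log10 p of -5.1 in shALKBH5 and -6.73 in shNC. LINC00484 had 6 peaks in each list, all partnered, with folds from 5.81 to 31.7 in the shALKBH5 list and from 4.31 to 50.8 in the shNC list. LINC00205 had 5 peaks in the shALKBH5 list and 7 in the shNC list, and 2 of its shALKBH5 peaks each overlapped more than 1 shNC peak.

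Divergent transcripts were few but some carried many peaks. CTBP1-DT, named for the gene of a transcriptional corepressor, had 7 peaks in the shALKBH5 list and 5 in the shNC list. Its strongest, at chr4:1251458-1251967, had 16.0-fold enrichment at a log10 p of -130 in the shALKBH5 list, and 22.0 and -182 in the shNC list. Some CTBP1-DT peaks overlapped each other within a list, as at chr4:1250350-1251039 and chr4:1250526-1251025 in the shALKBH5 list. BAIAP2-DT had 5 peaks in each list, with folds from 4.25 to 15.8 in the shALKBH5 list and from 8.12 to 25.9 in the shNC list.

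GARS-DT, named for the gene of glycyl-tRNA synthetase, had 8 peaks in the shALKBH5 list and 3 in the shNC list. Its strongest peak had 9.74-fold enrichment at a log10 p of -39.8 in the shALKBH5 list, and 8.79 and -23.4 in the shNC list. The 5 GARS-DT peaks with no shNC partner had log10 p between -2.78 and -6.43, and 2 of them had the same fold of 11.8. The 2 strongest GARS-DT peaks of the shALKBH5 list both had a partner.

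Both intronic members were named for genes with peaks in both lists. GABPB1-IT1 had a peak with 11.1-fold enrichment at a log10 p of -133 in the shALKBH5 list, and 9.55 and -117 in the shNC list. TTLL11-IT1 had a peak in the shALKBH5 list alone, with 13.6-fold enrichment at a log10 p of -3.29.

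Of the 29 SNHG genes that RefSeq holds, 7 had a peak, and this share was not set beside one over all genes. The strongest was SNHG16, with 3.99-fold enrichment at a log10 p of -54.6 in the shALKBH5 list and 6.3 and -118 in the shNC list. SNHG5 had a peak 15 bases after its start (fold 3.67) in the shALKBH5 list and 45 bases after it (fold 2.74) in the shNC list. SNHG26 had a peak near its end, with a fold of 3.74 in shALKBH5 and 4.35 in shNC.

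SNHG7 had 3 shALKBH5 peaks, with folds of 30.8, 4.69 and 3.05, and 1 shNC peak with a fold of 7.49. The SNHG7 peaks with folds of 30.8 and 4.69 in shALKBH5 and 7.49 in shNC all shared bases with peaks of FAM69B, and the only shNC peak that overlapped the first was one of FAM69B. Both of these shALKBH5 peaks lay outside the RefSeq span of SNHG7, while the one with a fold of 3.05 lay at its start. The SNHG20 peak, with a fold of 29.0 in shALKBH5 and 9.37 in shNC, also lay outside the RefSeq span of its gene. SNHG3 had a peak in the shALKBH5 list alone (fold 3.27, log10 p -4.49) and SNHG21 in the shNC list alone (fold 3.16, log10 p -3.67). RefSeq places 3 snoRNA genes inside SNHG16, 2 each inside SNHG3, SNHG5 and SNHG7, 1 inside SNHG26 and none inside SNHG20 or SNHG21. No SNHG peak shared a base with any of these snoRNAs.

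Of all member peaks, 1 shared bases with a microRNA hairpin. LINC00461, which RefSeq names MIR9-2HG as the host of microRNA 9-2, had its single peak at chr5:88666741-88666861 in the shNC list alone, with 16.1-fold enrichment at a log10 p of -4.01. It reached 9 bases into the 3′ end of the MIR9-2 hairpin at chr5:88666853-88666939 (-), printed from RefSeq (GRCh38.p14) with those bases in capitals.
MIR9-2: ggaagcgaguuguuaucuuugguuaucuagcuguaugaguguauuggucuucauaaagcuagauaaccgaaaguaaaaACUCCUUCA

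Of 28 LINC, antisense and intronic genes listed because they are studied in cancer or well expressed in many cells, 17 had a peak in both lists, 2 in the shALKBH5 list alone and 9 had no peak under the symbol used. The strongest by p, PCBP1-AS1, is described with the gene in its name further on. FGD5-AS1 had 9.19-fold enrichment at a log10 p of -630 in the shALKBH5 list and 10.7 and -622 in the shNC list. THAP9-AS1 had 8.07 and -415 in the shALKBH5 list and 9.45 and -477 in the shNC list, and LINC00665 had a best log10 p of -192 in shALKBH5 and -217 in shNC. The 2 in the shALKBH5 list alone were NUTM2A-AS1 (fold 6.33, log10 p -5.26) and BACE1-AS (fold 14.5, log10 p -3.54). No peak stood under the symbols EPB41L4A-AS1, LINC00657, LINC00152, LINC00467, DNAJC3-AS1, HOXA-AS2, HIF1A-AS2, BCL2L1-AS1 or IRF1-AS1. Some of these genes have other current symbols: RefSeq gives DNAJC3-AS1 as an older symbol of DNAJC3-DT, which is a member with peaks in both lists.

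The comparison of shALKBH5 with shNC asks which peaks and genes are found in 1 list and not in the other. Of the 497 member genes, 93 (18.7%) stood in the shALKBH5 list alone, where the share of all genes was 11.5 percent. Another 36 (7.24%) stood in the shNC list alone, with 5.5 percent of all genes, and 368 (74.0%) stood in both, with 83 percent of all genes. With only as many shALKBH5 peaks kept, by order of p, as the shNC list holds, 52 member genes in place of 93 stood in the shALKBH5 list alone and 53 in place of 36 in the shNC list alone, so the order of these counts turned with list length. Only member genes were recounted at this length, so these counts cannot be set beside the shares of all genes. By class, over the full lists, the shALKBH5 list alone held 57 of 309 antisense, 31 of 151 LINC and 3 of 28 divergent genes. The shNC list alone held 18, 16 and 1.

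Genes of 1 list mostly rested on a single peak of weak p. In the shALKBH5 list, 82 of the 93 (88.2%) had 1 peak, and their peaks had a median log10 p of -3.59. In the shNC list, 35 of the 36 (97.2%) had 1 peak, with a median log10 p of -3.75. Over all genes of 1 list the shares with 1 peak were 87.8% for shALKBH5 and 93.9% for shNC.

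The genes with the strongest p in the shALKBH5 list alone were LINC01215 and SREBF2-AS1. LINC01215 had a peak at chr3:108136376-108136823 with 8.08-fold enrichment at a log10 p of -22.1. SREBF2-AS1, antisense to the gene of a transcription factor of sterol metabolism, had 5.01-fold enrichment at a log10 p of -15.1. It shared 81.5% or more of both peaks with a peak of SREBF2 (fold 6.11, log10 p -14.6) and cannot be told apart from it. SREBF2 had no shNC peak. UXT-AS1 had 2 overlapping peaks with folds of 3.15 and 2.88, which shared bases with a peak of UXT. Further down were SRP14-AS1 (fold 22.2, log10 p -11.2), NUP50-DT (5.28, -9.46), LINC00452 (10.6, -9.01) and AP4B1-AS1 (2.1, -8.37), the last over a peak of AP4B1 with a fold of 2.04.

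In the shNC list alone the strongest p among genes with no shALKBH5 peak nearby was that of ELOA-AS1, with 1.83-fold enrichment at a log10 p of -7.28, over a peak of ELOA with a fold of 1.85. BTG3-AS1 followed with folds of 21.4 and 18.7 and log10 p of -5.55 and -4.78. KCNMB2-AS1 and LINC01144 both had 18.7-fold enrichment at a log10 p of -4.78, the same pair of values as the second BTG3-AS1 peak. IFNG-AS1, a lncRNA gene near the interferon gamma gene, had 4.61-fold enrichment at a log10 p of -4.65.

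Counted by peak, 226 of 867 member peaks (26.1%, 23.2 to 29.1) of the shALKBH5 list had no base in common with an shNC peak, where the share of all peaks was 19.8 percent. Of the shNC member peaks, 98 of 740 (13.2%, 10.9 to 15.9) had no shALKBH5 partner, where the share of all peaks was 12.6 percent. The order of the lists turned with list length: with both lists at equal length by p, the shares were 17.7% for shALKBH5 and 18.6% for shNC. Where partners had to share 50% of both peaks, the shares were 38.1% for shALKBH5 and 27.3% for shNC. Only member peaks were recomputed under these settings, so these shares cannot be set beside the 19.8 and 12.6 percent of all peaks. For the classes, peaks without a partner made up 24.8% of antisense, 29.3% of LINC and 22.4% of divergent peaks in the shALKBH5 list, and 12.6%, 14.4% and 14% in the shNC list.

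Peaks without a partner were found almost only among weak peaks, in members as in all peaks. In the strongest quartile of the shALKBH5 list by p, 0 of 117 member peaks had none (at most 3.1%), and in the next quartile 2 of 177 (1.13%). The share was 16.5% (12 to 21.9) in the third quartile, with 21.5% of all peaks there, and 54.9% (49.4 to 60.3) in the weakest, with 54.6% of all peaks. In the shNC list these shares were 0 of 102 and 0 of 167 in the stronger quartiles, 6.93% in the third, with 10.8% of all peaks, and 31.2% (25.7 to 37.1) in the weakest, with 38.7% of all peaks. The member share was below that of all peaks in every quartile but the weakest of the shALKBH5 list. The share of all peaks lay within the counting interval of the members in every quartile of both lists except the weakest of the shNC list.

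**Figure D3:**
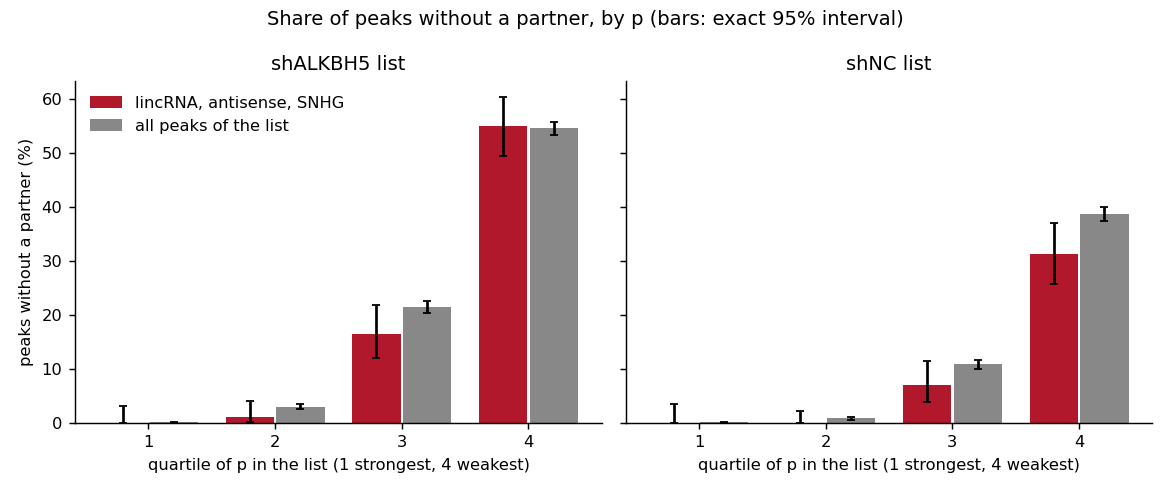
Bars give the percentage of peaks without a partner in the other list by quartile of the authors' p (1 strongest, 4 weakest), red for member peaks and grey for all peaks of the list, with exact 95% intervals, shALKBH5 left and shNC right. In the weakest quartile the member share is 54.9% in the shALKBH5 list and 31.2% in the shNC list.

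Many unpartnered member peaks had a fold and p that at least 5 peaks of the list share exactly. Such repeated values were found in 149 of the 226 shALKBH5 member peaks without a partner (65.9%, 59.4 to 72.1) and in 56 of the 98 shNC ones (57.1%, 46.7 to 67.1). Among member peaks with a partner they made up 18.3% in the shALKBH5 list and 22.0% in the shNC list. Over all peaks without a partner the share was 43.4% in the shALKBH5 list and 42.2% in the shNC list.

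A few unpartnered peaks in genes of both lists had a stronger p. DARS-AS1, antisense to the gene of aspartyl-tRNA synthetase, had a spliced shALKBH5 peak from chr2:135985386 to chr2:135986017, 210 bases after the start, with 23.5-fold enrichment at a log10 p of -22.5. It shared 114 bases with a peak of DARS (log10 p -24.4), a gene with no shNC peak. The only shNC peak of DARS-AS1 lay at the far end of the gene, at chr2:136007496-136007616, with 19.6 and -5.03. TMEM202-AS1 had an unpartnered shALKBH5 peak with 4.43-fold enrichment at a log10 p of -14, between 2 peaks that both lists share. FBXL19-AS1 (8.53, -12.7), LAMTOR5-AS1 (6.79, -12.2), SPAG5-AS1 (23.1, -11.8) and LINC00511 (10.9, -11.6) came next. The LAMTOR5-AS1 peak shared 99.6% of its bases with a peak of LAMTOR5 that has the same fold and p. Strongest in the shNC list were LINC01184 (3.61, -10.2), AFAP1-AS1 (1.49, -8.8) and IL10RB-DT (2.79, -7.91), the last over a peak of IFNAR2 with a fold of 2.7.

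In the 368 member genes with a peak in both lists, 84 (22.8%) had more peaks in the shALKBH5 list, 52 (14.1%) had more in the shNC list and 232 (63.0%) had equal numbers. All genes gave 22.8%, 14% and 63.2%, so the member genes showed the split of the whole lists. A difference of at least 3 peaks was found in 8 genes, with more shALKBH5 peaks in 7 of the 368 and more shNC peaks in 1. Of all 10603 genes with a peak in both lists, these numbers were 81 and 35. The number was higher in shALKBH5 in GARS-DT (8 shALKBH5 and 3 shNC peaks), DHRS4-AS1 (5 and 1), FBXL19-AS1 (5 and 2), KIF9-AS1 (7 and 4), LINC00511, LINC00648 and ZNF213-AS1 (4 and 1 each), and lower in FOXD2-AS1 (2 and 5). In DHRS4-AS1, a lncRNA antisense to a dehydrogenase gene, 3 of the 5 shALKBH5 peaks lay inside the single shNC peak at chr14:23939659-23940826, so there several shALKBH5 peaks cover a stretch that is 1 peak in the shNC list.

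Of the member peaks with a partner, 10 were chosen by the better of their lower ranks by fold in both lists. IQCH-AS1 gave 2 of them, with folds of 44.8 and 32.6 in the shALKBH5 list and 40.4 and 41.9 in the shNC list. The first IQCH-AS1 peak kept its borders, chr15:67408047-67408405, and nearly its log10 p, -43.7 in shALKBH5 and -43.3 in shNC. The fold was 57.0 in shALKBH5 and 37.5 in shNC for LINC00526, 67.0 in shALKBH5 and 35.7 in shNC for CALML3-AS1, and 48.0 in shALKBH5 and 34.3 in shNC for GMDS-DT. Among the rest, PRKAR2A-AS1 had 34.4 in shALKBH5 and 35.7 in shNC, and LINC00484 31.7 in shALKBH5 and 38.4 in shNC. PITRM1-AS1 had 31.7 in shALKBH5 and 34.8 in shNC, and LINC01361 48.0 in shALKBH5 and 30.3 in shNC. The log10 p was -9.35 in shALKBH5 and -9.78 in shNC for PRKAR2A-AS1, -8.55 and -9.51 for PITRM1-AS1, and -13.4 and -8.18 for LINC01361. In the same order it was -19 and -11.3 for LINC00526, -19.1 and -9.78 for CALML3-AS1, and -15.6 and -20.9 for LINC00484. For GMDS-DT it was -23 and -25.9, and for the second IQCH-AS1 peak -21.8 and -31.7. The median over all peaks was -15.3 in shALKBH5 and -15.8 in shNC. IL21R-AS1, antisense to the gene of the interleukin 21 receptor, had a fold of 34.4 with a log10 p of -113 in the shALKBH5 list, and 75.8 with -41.8 in the shNC list. These folds say where enrichment was high in each list and are not a measure of change, since no source used here gives the normalization of IP to input.

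By position along the gene, 759 of 867 shALKBH5 member peaks (87.5%) and 647 of 740 shNC ones (87.4%) could be placed on a RefSeq gene. A peak counted as at the start when its 5′ edge lay before the annotated first base or within 500 bp after it. This held for 146 shALKBH5 member peaks (19.2%, 16.5 to 22.2), with 14.5 percent of all placed peaks of that list, and for 131 shNC member peaks (20.2%, 17.2 to 23.6), with 11.4 percent of all. A peak not already counted as at the start counted as at the end when its 3′ edge lay less than 1000 bp from the end. This held for 31.4% (28.1 to 34.8) of shALKBH5 member peaks, with 22 percent of all, and for 32.1% of shNC ones, with 23 percent of all. A peak that met both limits is thus in the start share alone. Member genes are shorter, with a median RefSeq span of 9535 bp in the shALKBH5 list where that of all genes with placed peaks was 28582 bp, and its part in these shares was not tested.

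Divergent transcripts had the highest start share of the larger classes, 31.4% (19.1 to 45.9) of 51 placed peaks in the shALKBH5 list and 36.4% (22.4 to 52.2) of 44 in the shNC list. Antisense genes had 20.3% in shALKBH5 and 20.4% in shNC, and LINC genes 13.4% in shALKBH5 and 15.3% in shNC. The intervals of antisense and divergent peaks overlap. These classes follow the authors' symbols. RefSeq now gives divergent transcript names to some antisense members, such as COX10-AS1, RAB30-AS1 and UBA6-AS1. It does so as well for some LINC members, such as LINC00337 and LINC01184. How the class shares would stand under the RefSeq names was not tested. The strongest start peaks by p in the shALKBH5 list were both peaks of NCBP2-AS2 (fold 21.8 with log10 p -2340, and 3.83 with -286) and those of PCBP1-AS1 (3.25, -809) and SMAD1-AS1 (15.9, -358). The shNC ones were those of NCBP2-AS2 (18.0, -2520), SMAD1-AS1 (22.9, -284), OTUD6B-AS1 (12.2, -267) and LINC00667 (12.6, -252). The shNC peak of NCBP2-AS2 ran from 8 bases after the start to 3 bases before the end. That of SMAD1-AS1 ran from 132 bases after the start to 37 bases before the end. For peaks that reach both limits, the enrichment cannot be assigned to the start rather than the end. Other RefSeq lncRNA genes had 13.7% (9.44 to 19.0) of peaks at the start in the shALKBH5 list and 11.6% (7.67 to 16.7) in the shNC list, while their share at the end, 32.0% in shALKBH5 and 32.6% in shNC, was close to that of the members.

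Over all peaks of the shALKBH5 list, those without an shNC partner lay more often at gene starts, 27.1%, than those with one, 11.5%. Of the shALKBH5 member peaks, 20% (14.6 to 26.3) of the 195 without a partner and 19.0% (15.8 to 22.5) of the 564 with one lay at the start, and these intervals overlap. In the shNC list the member shares were 23.5% (14.8 to 34.2) without and 19.8% (16.6 to 23.3) with a partner, where all peaks had 12.7% and 11.3%. Without the member peaks that share bases with a peak of a gene outside the set, the shALKBH5 shares were 18.2% (12.6 to 24.9) without and 16.9% (13.5 to 20.8) with a partner.

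**Figure D4:**
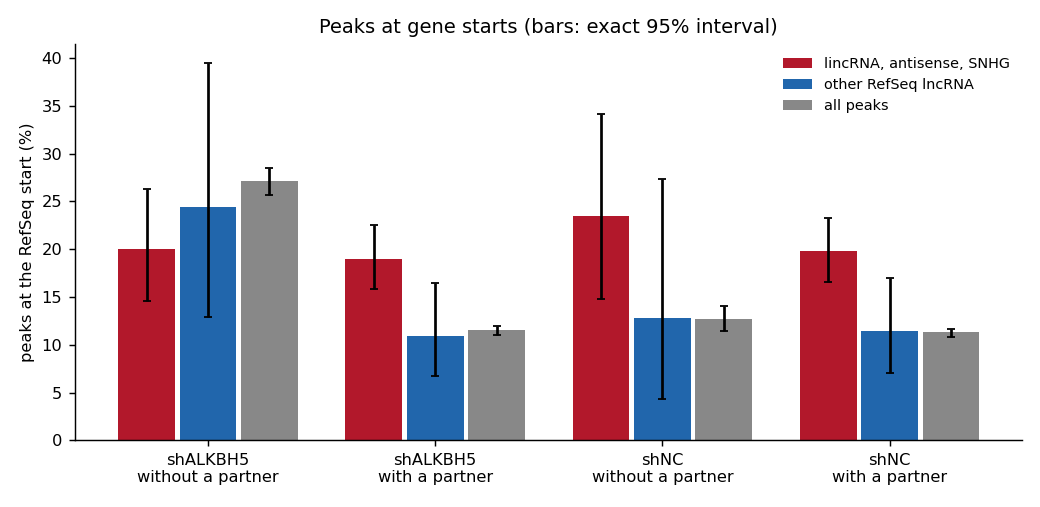
Bars give the percentage of placed peaks at the RefSeq start, with exact 95% intervals, for member peaks (red), peaks of other RefSeq lncRNA genes (blue) and all peaks (grey), split by list and by whether the other list has a partner. The shALKBH5 member bars stand at 20% without and 19.0% with a partner, while the grey bars stand at 27.1% and 11.5%.

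Member peaks often shared bases with the peak of another gene. This was the case for 196 shALKBH5 member peaks (22.6%) and 164 shNC ones (22.2%), with 15 percent of all peaks in each list. Antisense genes accounted for most of it, with 163 of 540 peaks (30.2%, 26.3 to 34.3) in the shALKBH5 list and 135 of 461 (29.3%, 25.2 to 33.7) in the shNC list. Of LINC peaks it was 10.0% in shALKBH5 and 10.4% in shNC, and of divergent ones 8.62% in shALKBH5 and 10.0% in shNC. Nearly all such pairs had the 2 genes on opposite strands, 193 of 216 pairs in the shALKBH5 list and 161 of 181 in the shNC list. When a shared base had to lie on the same strand, 2.04% of shALKBH5 and 2.17% of shNC antisense peaks counted.

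No source used here says whether the libraries preserve strand. A peak entered for an antisense gene and one entered for its partner over the same bases cannot be told apart. The values of such pairs were close. Of 73 opposite-strand pairs in the shALKBH5 list that shared at least 80% of both peaks, 56 (76.7%) had folds within 10% of each other, 62 (84.9%) had log10 p within 10%, and 22 had equal folds. For the shNC list these were 46 (74.2%) and 53 (85.5%) of 62 pairs, and 14 with equal folds. Where under 20% was shared, folds were within 10% in 2 of 26 shALKBH5 pairs and 3 of 17 shNC pairs.

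**Figure D5:**
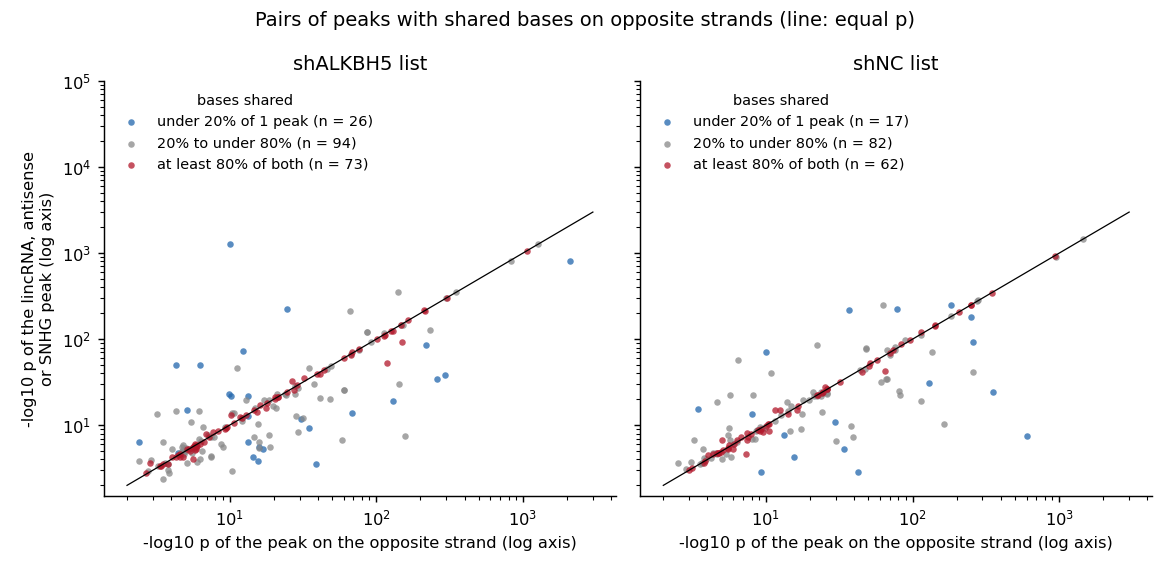
Each point is a pair of peaks with shared bases on opposite strands, with -log10 p of the other gene's peak on the x axis and of the member's peak on the y axis (log axes), shALKBH5 left and shNC right, coloured by how much of both peaks is shared; the line marks equal p. The 73 shALKBH5 and 62 shNC pairs that share at least 80% of both peaks (red) follow the line, and pairs with slight overlap (blue) scatter around it.

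Several of the strongest antisense peaks shared bases with a peak of the gene in their name. DDIT4-AS1 and DDIT4, which encodes a stress-induced inhibitor of mTORC1, had folds of 11.7 and 11.9 in the shALKBH5 list and 10.8 and 10.8 in the shNC list, with log10 p of -1260 for both genes in shALKBH5 and -1460 for both in shNC. SH3BP5-AS1 and SH3BP5 had folds of 4.66 and 4.65 in the shALKBH5 list and 5.03 and 5.15 in the shNC list. PCBP1-AS1 and PCBP1, the gene of a poly(C)-binding protein, had 3.25 and 3.31 in the shALKBH5 list and 3.49 and 3.61 in the shNC list. For these 3 pairs the antisense gene and its partner gave nearly the same values, so the enrichment cannot be assigned to the antisense RNA. The DDIT4-AS1 peak also lay outside the RefSeq span of DDIT4-AS1 in both lists. The shNC peak of PCBP1-AS1 lay outside the span of its gene as well, and the 5′ edge of the shALKBH5 one lay before the RefSeq start.

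SMAD1-AS1, antisense to the gene of a BMP signal transducer, had folds of 15.9 in the shALKBH5 list and 22.9 in the shNC list, with 14.7 in shALKBH5 and 14.6 in shNC for SMAD1. USP3-AS1 had 7.76 and USP3 7.24 in the shALKBH5 list, where the shNC list had 7.64 and 7.1 for the same genes. The IL21R-AS1 peak named above overlapped a peak of IL21R, with a fold of 38.5 in the shALKBH5 list and 86.5 in the shNC list.

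Of the 339 antisense, divergent and intronic members, the gene in the name had a peak itself for 283 (83.5%), and for 256 of them in both lists. RefSeq gives both strands for 280 pairs, of which 278 are on opposite strands. The other 2 are the intronic ones, and RefSeq gives TTLL11-IT1 as an older symbol of TTLL11 itself. The starts of member and named gene lay within 1000 bp of each other in 20 of 25 divergent pairs (80%, median distance 210 bp) and in 95 of 248 antisense pairs (38.3%, median 4293.5 bp). Here too the class follows the authors' symbols, and some of these antisense members have divergent names in RefSeq. Peaks of member and named gene shared bases for 109 of the 309 antisense genes and for none of the 28 divergent and 2 intronic ones. The peaks of divergent members were therefore entered apart from those of the genes they are named for.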

How the data were processed

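m6A-seq of RPMI-8226 gave 4 libraries, an IP and an input for each of shALKBH5 and shNC, and the authors deposited 1 peak list per condition. Per the file headers, each peak has coordinates, blocks, a strand, an Ensembl gene, a symbol, a fold enrichment (the ratio of IP over input, as deposited) and a p-value. The authors' columns of log10 p and log10 FDR were treated as a score, since their range is not fixed. HOMER 4.9.1, BWA 0.7.12, fastp 0.19.11 and the build hg38 are named in the submitters' processing notes, which give no role or order. No source used here gives the peak caller, its normalization or the strand of the libraries. Per the labels' protocols, poly(A) RNA was purified and an NEBNext Ultra kit was used.

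Start coordinates count from 0 in the files and were printed from 1. A partner is a peak of the other list with at least 1 base in common between blocks, strand ignored (bedtools 2.31.1). Peaks were placed on RefSeq GRCh38.p14 gene spans by symbol, older symbols included. The computations used SciPy 1.17.1, numpy 2.4.6 and pandas 2.3.3 in Python 3.11.15, with matplotlib 3.10.9 for plots. Partner calls and positions were tested on simulated data. There is 1 list per condition, so no test between conditions was run.

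Named genes were the SNHG members, those with the most peaks, and peaks ranked by p or by the lower of their 2 fold ranks, among all member peaks, without a partner, at starts, in genes of 1 list and over a partner gene, plus a list of known lncRNAs. The members with a difference of at least 3 peaks, LINC00461, LINC00634 and TNRC6C-AS1 were added after their values were seen. Printed windows were limited, after the files were seen, to those outside protein-coding spans. Members and lists were chosen with earlier results of these data known. Alternatives were a stricter fold, 50% reciprocal overlap, partners within 200 bp, the same strand, merging within 100 bp, equal list lengths by p, other start and end limits, and 2 subsets of members. Peak sequences were not read, since no genome sequence was used here. A gene that the rule names is not reported here.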

Additional observations from a re-analysis of the deposited data

How the results depend on the processing

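Of 66 values recomputed under alternatives, all of them for members, 50 stayed within the limits set for a move and 16 moved. Under 50% reciprocal overlap, peaks without a partner made up 38.1% of shALKBH5 and 27.3% of shNC member peaks, and antisense peaks that share bases with another gene's peak 19.8% of shALKBH5 and 19.1% of shNC ones. With partners allowed within 200 bp, peaks without a partner made up 22% in shALKBH5 and 10.7% in shNC. With lists of equal length by p, they made up 17.7% in shALKBH5 and 18.6% in shNC, and 52 member genes stood in the shALKBH5 list alone and 53 in the shNC list alone, in place of 93 and 36, by construction with fewer peaks in that list. On the same strand, antisense overlap was 2.04% in shALKBH5 and 2.17% in shNC. With a start limit of 200 bp, 11.9% of shALKBH5 and 12.7% of shNC peaks lay at the start, and with an end limit of 500 bp, 22.4% of shALKBH5 and 23.3% of shNC peaks at the end, by construction of the narrower limits. Without member peaks that share bases with a peak of a gene outside the set, an alternative chosen after seeing the data, 16.1% of shNC member peaks had no partner. With partners taken from the whole shALKBH5 list, 6.21% of the shNC member peaks left out had none, and 15.2% of those kept. Why these shares differ was not tested. A fold of at least 2 times the lowest of the list (13 values), merging within 100 bp (2 values) and leaving out members that RefSeq lists as protein-coding (13 values, also chosen after seeing the data) left every value within these limits. No paired analysis was possible because each condition has 1 peak list and no result comes from a test. Read depth is unknown, so how far it sets the number of weak peaks in each list was not tested.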
